A study of Homo sapiens with 18 samples.

Results

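The genes described here are 60 genes that act in cell division: the kinases, checkpoint proteins, kinetochore subunits, spindle motors, cytokinesis factors and condensin subunits of mitosis. They were taken as a named list from the 60656 gene rows of the count table, matched by symbol. The list was drawn up by function, with no threshold on a measured value, but with earlier results of these data known. Levels were measured by 3′-end messenger RNA sequencing in CAMA-1 and ZR-75-1, 2 established breast cancer lines positive for the oestrogen receptor, which the labels describe as wild-type. Each line was given abemaciclib at 500 nM, palbociclib at 500 nM or an equal volume of DMSO for 5 days, with 3 replicates in each of the 6 groups and 18 libraries in all. Both drugs inhibit CDK4 and CDK6, the kinases that phosphorylate the retinoblastoma protein at the start of the cell cycle. All groups were grown in serum-containing RPMI medium, and no group received both drugs.

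Cell cycle genes are transcribed in waves. A first wave in late G1 is driven by E2F factors and supplies DNA replication, and a second wave in G2 supplies mitosis. In resting cells the DREAM complex holds the genes of the second wave down through a promoter element called the cell cycle genes homology region (CHR). In G2 the same element is used by the B-MYB and FOXM1 activators, commonly next to CCAAT boxes, which bind NF-Y. MKI67, which encodes the Ki-67 protein, is the usual marker of dividing cells in breast tumours.

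The promoters show how much of this sequence grammar the 60 genes share. RefSeq promoter windows of 300 bases (GRCh38.p14, 250 bases before to 50 after the start) were given for 51 of the 60 genes, as 59 windows. CHR letters, TTTGAA or TTTAAA on either strand, stood in 47 of the 59 member windows (79.7%) and in 24.0% of all 35116 windows. Within 100 bases before to 50 after the start the shares were 74.6% and 11.2%. A CCAAT box on either strand stood in 74.6% of the full member windows and in 34.6% of all windows. Base composition was not matched between the 2 sets of windows.

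E2F letters were rare in both sets. TTTCCCGC, TTTCGCGC, TTTGCCGC or TTTGGCGC, on either strand, stood in 6.78% of member windows and 3.31% of all windows. The joined element called CDE-CHR, which contains CHR letters (GCG followed after 5 bases by TTTGAA), stood in 7 member windows (11.9%) against 0.197% of all windows. These 7 belonged to ASPM, CENPA, CENPF, CKAP2L, CKS1B, NUF2 and PLK1. A pair of CCAAT boxes 20 to 50 bases apart, on either strand, stood in 37.3% of member windows and 5.30% of all. The matches are letters in a window and were not tested for binding.

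The 100 bases before the start are shown for 8 genes (GRCh38.p14, RefSeq), on the strand of the gene, because they span the strongest and the weakest responses described in the values that follow. Capitals mark CHR letters on either strand, CCAAT boxes on either strand, and the GCG of a CDE-CHR. A CCAAT box on the other strand reads ATTGG, and the CHR letters of SMC4 lie on the other strand too. MKI67, KIF20A, AURKB, PTTG1, CENPA and PLK1 were among the genes with the deepest falls under abemaciclib in ZR-75-1. CKS1B and SMC4 also carry CHR letters and were among the genes that changed least with palbociclib in that line. The other window of SMC4, at a later start and not shown, holds no CHR letters and no CCAAT box. AURKB holds none of the marked letters in this stretch. In MKI67 the second CHR match shares letters with a CCAAT box, and in PTTG1 a pair of CCAAT boxes on opposite strands share letters.
MKI67, chr10:128126424-128126523, minus strand: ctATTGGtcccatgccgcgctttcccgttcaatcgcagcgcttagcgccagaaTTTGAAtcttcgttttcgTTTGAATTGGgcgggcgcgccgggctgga
PTTG1, chr5:160421755-160421854, plus strand: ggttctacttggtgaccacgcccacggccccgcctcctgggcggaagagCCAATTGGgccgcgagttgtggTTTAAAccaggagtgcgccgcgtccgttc
PLK1, chr16:23678789-23678888, plus strand: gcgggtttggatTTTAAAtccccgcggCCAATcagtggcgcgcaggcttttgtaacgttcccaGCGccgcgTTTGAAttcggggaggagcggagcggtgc
CENPA, chr2:26785956-26786055, plus strand: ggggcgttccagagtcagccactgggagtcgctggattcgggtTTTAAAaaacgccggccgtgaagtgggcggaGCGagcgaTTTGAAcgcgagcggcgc
KIF20A, chr5:138179012-138179111, plus strand: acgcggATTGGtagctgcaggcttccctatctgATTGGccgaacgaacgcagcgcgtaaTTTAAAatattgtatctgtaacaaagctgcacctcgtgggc
CKS1B, chr1:154974581-154974680, plus strand: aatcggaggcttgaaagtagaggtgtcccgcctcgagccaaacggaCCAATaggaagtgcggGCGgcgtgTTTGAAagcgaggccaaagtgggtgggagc
SMC4, chr3:160399550-160399649, plus strand: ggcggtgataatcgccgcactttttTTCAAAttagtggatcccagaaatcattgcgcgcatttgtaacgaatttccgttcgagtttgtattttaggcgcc
AURKB, chr17:8210226-8210325, minus strand: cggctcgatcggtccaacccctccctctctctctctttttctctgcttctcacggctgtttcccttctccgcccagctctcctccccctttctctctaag

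Members with and without TTTGAA or TTTAAA near the start had like medians. Of the members tested, 40 had CHR letters within 100 bases before to 50 after a start and 10 had a window with none there. Under abemaciclib in ZR-75-1 the medians of their log2 fold changes came to −2.05 and −1.87. Under the same drug they came to −1.97 and −2.01 in CAMA-1. Other spellings of the element were not searched, and these sets were not compared by a test.

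**Figure D1:**
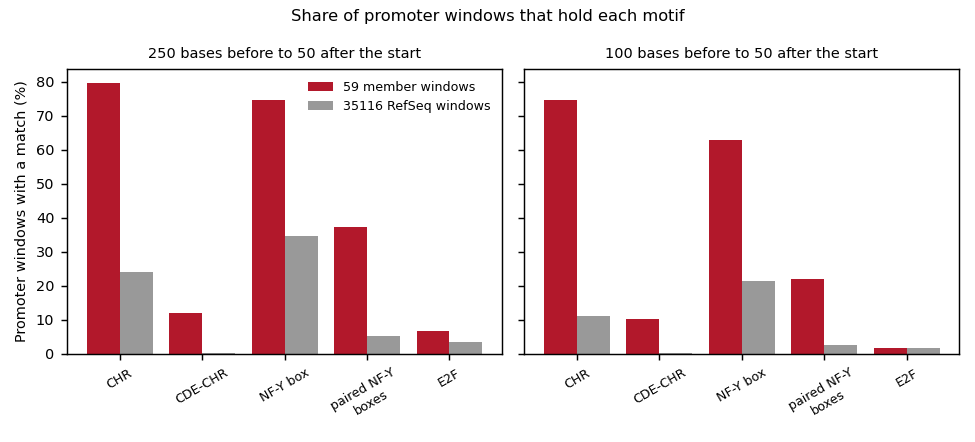
Share of promoter windows (percent, vertical axis) that hold each motif, for the 59 member windows (red) and all 35116 RefSeq windows (grey), NF-Y box meaning CCAAT, in the full 300-base window (left) and from 100 bases before to 50 after the start (right). CHR letters stand in 79.7% of member windows on the left and 74.6% on the right, against 24.0% and 11.2% of all windows, whereas E2F letters are rare in both.

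Levels are given as CPM, counts relative to the library total after scaling between libraries of the same line. The kit reads 3′ ends, so a level depends little on gene length. Library totals ran from 2308442 to 4146549 counts, so 1 count stood for 0.241 to 0.433 CPM of the unscaled total, and a floor of 3 counts per library is used where a gene was nearly absent. Both lines carried their luminal markers, with each of 8 luminal genes at 120 counts or more in every library. KRT5 was at 0 in all 18 libraries and basal and endothelial markers stayed at or under 3 counts in each. Luminal genes of CAMA-1 summed to 5050–5404 CPM in DMSO libraries, 7569–7648 CPM under abemaciclib and 7640–7726 CPM under palbociclib. Those of ZR-75-1 summed to 6950–7270, 14220–15126 and 11903–12384 CPM. Fibroblast markers summed to 15.0–33.2 CPM, and immune markers to at most 11.3 CPM. The part of these shifts in the results was not tested. In such bulk samples, fewer dividing cells and less RNA per cell cannot be told apart.

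The summed level of the 60 genes with drug lay between 21.9% and 51.6% of its DMSO mean. The DMSO libraries of CAMA-1 summed to 7882–8102 CPM, those with abemaciclib to 2198–2248 CPM and those with palbociclib to 2749–2800 CPM. The DMSO libraries of ZR-75-1 summed to 7784–8012 CPM, those with abemaciclib to 1689–1771 CPM and those with palbociclib to 3987–4174 CPM. No drug library overlapped a DMSO library, and the 2 drugs did not overlap each other in either line. The drugs stood further apart in ZR-75-1, where the palbociclib mean was 51.6% and the abemaciclib mean 21.9% of the DMSO mean, than in CAMA-1, where they were 34.8% and 27.8%. These sums are descriptions, and the genes are tested one by one in what follows.

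**Figure D2:**
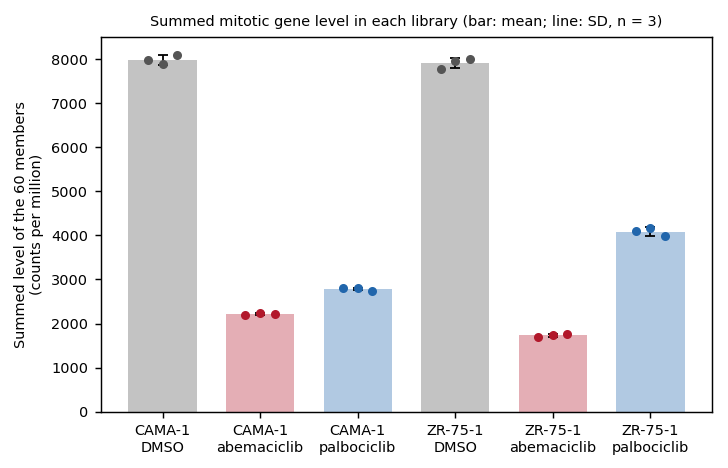
Summed level of the 60 genes (CPM, vertical axis from 0) in each library (points) with the mean (bar) and SD (line, n = 3) of each group. Abemaciclib gives the lower bar in both lines, and the gap between the drugs is wider in ZR-75-1, at means of 1731 and 4086 CPM, than in CAMA-1, at 2220 and 2782 CPM.

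Abemaciclib lowered nearly all of these genes in both lines. A gene was called changed at a Benjamini-Hochberg adjusted p under 0.05 over all genes tested (edgeR quasi-likelihood test). Of the 60 genes, 59 passed the filter on low counts. In CAMA-1, all 59 fell with abemaciclib and none rose, where 20.1% of all tested genes fell and 20.3% rose. Their median log2 fold change was −1.96, against 0.01 over all tested genes. In ZR-75-1, 58 of 59 fell and none rose, against 18.3% and 17.9% of all genes, with a median of −2.07. SGO2 was the exception in that line.

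Palbociclib also lowered most of them, with medians closer to 0. In CAMA-1, 57 of 59 fell and none rose, where 18.7% of all genes fell and 18.4% rose, with a median log2 fold change of −1.56. BUB3 and TTK did not pass. In ZR-75-1, 55 of 59 fell and none rose, against 13.4% and 14.5% of all genes, with a median of −0.94. CENPK, ECT2, SGO2 and SPC24 did not pass (adjusted p = 0.49, 0.15, 0.069 and 0.12). In all, 53 genes fell in each of the 4 comparisons with DMSO, as did 5.48% of the 10124 genes tested in both lines. The 2 comparisons of a line share its DMSO libraries. Leaving out any single library moved none of these 4 counts of lower genes by over 1.5 times, a loose bound for counts this near 59.

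Falls of at least 2-fold were common with abemaciclib and less so with palbociclib in ZR-75-1. In CAMA-1, 54 of 59 genes fell by at least 2-fold with abemaciclib, against 5.88% of all genes, and 50 with palbociclib, against 4.51%. In ZR-75-1 the counts were 51 with abemaciclib, against 6.93%, and 25 with palbociclib, against 3.26%. Each drug library lay below every DMSO library for 59 genes with either drug in CAMA-1, where 24.1% of all genes did so with abemaciclib and 23.1% with palbociclib. In ZR-75-1 this held for 58 genes with abemaciclib and 54 with palbociclib, against 23.4% and 19.7%.

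In CAMA-1 the mitochondrially encoded share of counts moved with the drugs. DMSO libraries held 14.8–16.6%, abemaciclib libraries 23.4–26.1% and palbociclib libraries 22.9–24.9% (exact two-sided permutation p = 0.1 for each drug, the smallest that 3 against 3 allows). In ZR-75-1 it was 17.3–22.6%, 18.5–20.5% and 18.5–19.8% (exact two-sided permutation p = 0.8 and 0.6). With mitochondrial genes left out of totals and tests, 59 mitotic genes in CAMA-1 were lower with abemaciclib and 57 with palbociclib, and 58 and 55 were in ZR-75-1.

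**Figure D3:**
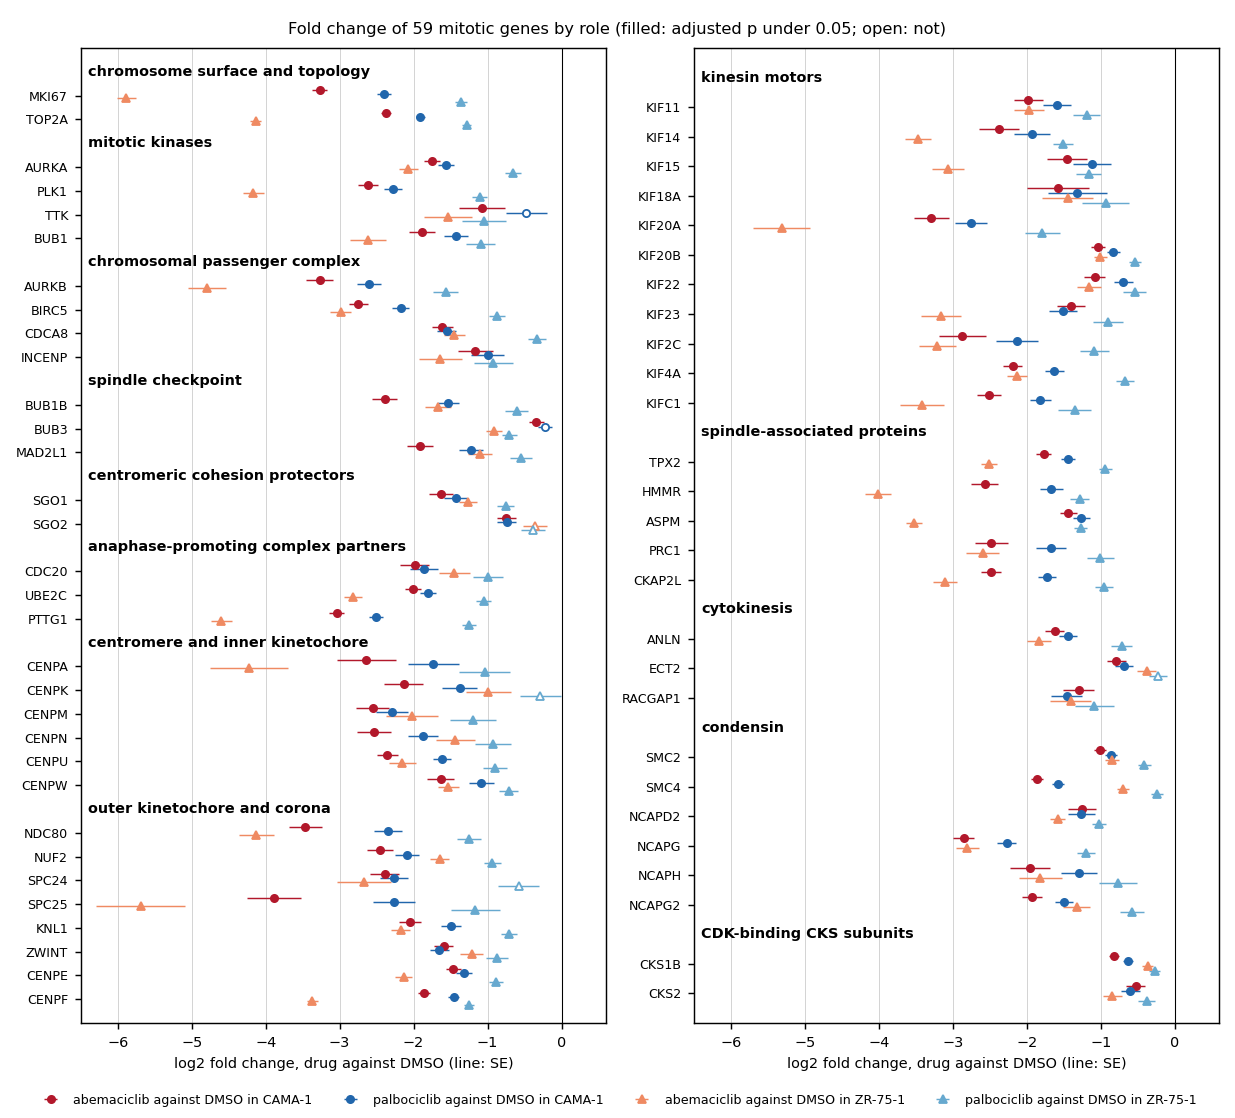
Log2 fold change against DMSO (horizontal axis, lines are SE) of the 59 tested genes grouped by role, for abemaciclib (red and orange) and palbociclib (dark and light blue) in CAMA-1 (circles) and ZR-75-1 (triangles), with open symbols where the adjusted p was not under 0.05. All values lie below 0. The orange triangles of MKI67, SPC25 and KIF20A lie furthest left, although SPC25 and KIF20A are at or under 3 counts per library there and their fitted values are no bound. CKS1B and CKS2 lie within 1 log2 unit of 0 in every comparison, and BUB3 lies nearest 0 in CAMA-1 but further left in ZR-75-1.

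MKI67 and TOP2A, the 2 genes of the chromosome surface and topology, gave the clearest picture. MKI67 encodes Ki-67, which coats mitotic chromosomes. In CAMA-1, MKI67 measured 406, 409.6 and 475 CPM with DMSO, 53.4, 39.7 and 39.0 with abemaciclib, and 83.8, 79.9 and 80.4 under palbociclib. In ZR-75-1, MKI67 measured 479.9, 501 and 483 CPM with DMSO, 6.80, 5.42 and 13.1 with abemaciclib, and 180.3, 204 and 188 under palbociclib. The 3 treatments did not overlap in either line, and the lowest levels were those with abemaciclib in ZR-75-1, at 16 to 34 counts per library. That mean was 1.73% of the DMSO mean, a log2 fold change of −5.88 ± 0.13 SE (adjusted p = 1.5e-40), whereas palbociclib left 39.1%. In CAMA-1 the corresponding shares were 10.2% and 18.9%. Each SE is the log2 fold change over the root of the F of the test, and can be too small where counts are this few.

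TOP2A encodes the topoisomerase that untangles sister chromatids. In CAMA-1, TOP2A measured 1752, 1625 and 1762 CPM with DMSO, 304, 339 and 351 with abemaciclib, and 451, 467 and 449.6 under palbociclib. In ZR-75-1, TOP2A measured 1437, 1481 and 1509 CPM with DMSO, 83.5, 80.2 and 88.3 with abemaciclib, and 620.4, 612 and 584 under palbociclib. Groups were again separate in each line. Abemaciclib left 19.3% of the DMSO mean in CAMA-1 and 5.69% in ZR-75-1, and palbociclib left 26.6% and 41.0%.

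The 4 mitotic kinases fell in each comparison with DMSO, except TTK with palbociclib in CAMA-1. PLK1 is the Polo-like kinase that drives entry into and exit from mitosis. In CAMA-1, PLK1 measured 143, 140.0 and 135 CPM with DMSO, 24.8, 22.5 and 20.3 with abemaciclib, and 33.7, 21.7 and 29.8 under palbociclib. In ZR-75-1, PLK1 measured 169, 160.4 and 153 CPM with DMSO, 9.38, 7.45 and 10.0 with abemaciclib, and 72.4, 73.4 and 77.7 under palbociclib. The drugs were 8.32-fold apart in ZR-75-1, while in CAMA-1 their libraries overlapped. AURKA is the spindle-pole kinase. In CAMA-1, AURKA measured 150.2, 162 and 149 CPM with DMSO, 47.3, 42.8 and 45.7 with abemaciclib, and 56.4, 54.4 and 43.7 under palbociclib. In ZR-75-1, AURKA measured 98.2, 95.4 and 103 CPM with DMSO, 20.1, 22.3 and 28.5 with abemaciclib, and 68.0, 62.8 and 56.9 under palbociclib. Its drug groups overlapped in CAMA-1 and were separate in ZR-75-1, where the palbociclib log2 fold change was −0.66 ± 0.11 SE.

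BUB1 is a checkpoint kinase of the kinetochore. In CAMA-1, BUB1 measured 60.5, 48.7 and 58.9 CPM with DMSO, 19.0, 12.8 and 12.7 with abemaciclib, and 24.9, 19.7 and 17.3 under palbociclib. In ZR-75-1, BUB1 measured 36.0, 37.3 and 41.3 CPM with DMSO, 3.88, 5.42 and 9.64 with abemaciclib, and 18.1, 12.6 and 22.5 under palbociclib. All drug libraries were below all DMSO libraries. TTK, also called MPS1, starts checkpoint signalling and was sparse. In CAMA-1, TTK measured 9.64, 12.6 and 11.4 CPM with DMSO, 6.14, 3.97 and 5.40 with abemaciclib, and 7.57, 9.55 and 6.93 under palbociclib. In ZR-75-1, TTK measured 11.6, 18.4 and 13.9 CPM with DMSO, 3.24, 4.74 and 7.33 with abemaciclib, and 9.05, 4.30 and 7.51 under palbociclib. With palbociclib in CAMA-1 its log2 fold change was −0.48 ± 0.28 SE and did not pass (adjusted p = 0.19).

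All 4 genes of the chromosomal passenger complex fell in every comparison with DMSO. The complex corrects faulty attachments and guides cytokinesis. AURKB is its kinase. In CAMA-1, AURKB measured 64.1, 68.6 and 63.9 CPM with DMSO, 6.68, 6.17 and 7.30 with abemaciclib, and 10.5, 9.84 and 12.1 under palbociclib. In ZR-75-1, AURKB measured 51.4, 56.6 and 58.9 CPM with DMSO, 1.29, 3.05 and 1.54 with abemaciclib, and 16.2, 17.2 and 22.8 under palbociclib. With abemaciclib in ZR-75-1 that was 4 to 9 counts per library, and the log2 fold change was −4.79 ± 0.26 SE. BIRC5 encodes survivin, which docks the complex on chromatin. In CAMA-1, BIRC5 measured 180.1, 154 and 179.5 CPM with DMSO, 31.5, 22.0 and 21.3 with abemaciclib, and 43.7, 31.8 and 37.4 under palbociclib. In ZR-75-1, BIRC5 measured 124, 144 and 106 CPM with DMSO, 16.5, 12.9 and 18.1 with abemaciclib, and 74.6, 60.5 and 69.3 under palbociclib. CDCA8 and INCENP, the borealin and scaffold subunits, had smaller falls, with log2 fold changes from −1.64 to −0.33.

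In the spindle checkpoint, BUB3 had the smallest falls of all members in CAMA-1 and larger ones in ZR-75-1. BUB3 brings BUB1 and BUB1B to kinetochores. In CAMA-1, BUB3 measured 106, 104 and 123 CPM with DMSO, 87.6, 93.5 and 83.2 with abemaciclib, and 86.3, 99.3 and 101 under palbociclib. In ZR-75-1, BUB3 measured 126, 124 and 119.9 CPM with DMSO, 62.8, 65.7 and 68.6 with abemaciclib, and 65.0, 84.6 and 77.7 under palbociclib. In CAMA-1 its log2 fold change was −0.34 ± 0.10 SE with abemaciclib and −0.23 ± 0.10 SE with palbociclib, the latter not past the threshold (adjusted p = 0.063). The former call was lost without DMSO replicate 3, with an adjusted p of 0.052, and the latter passed without DMSO replicate 2, with an adjusted p of 0.046. In ZR-75-1 both drugs lowered it, by −0.91 ± 0.11 SE with abemaciclib and −0.71 ± 0.10 SE with palbociclib on the log2 scale. MAD2L1 and BUB1B, which are parts of the checkpoint complex that holds back anaphase, fell in all 4 comparisons, by log2 fold changes of −2.39 to −0.55.

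Cohesion at the centromere is protected by the shugoshins SGO1 and SGO2. SGO1 fell in all 4 comparisons, by −1.63 to −0.76 on the log2 scale. In CAMA-1, SGO2 measured 61.5, 76.3 and 65.3 CPM with DMSO, 33.7, 41.0 and 46.7 with abemaciclib, and 40.8, 40.2 and 40.2 under palbociclib. In ZR-75-1, SGO2 measured 33.1, 45.1 and 54.2 CPM with DMSO, 27.5, 44.3 and 31.2 with abemaciclib, and 37.6, 28.8 and 34.4 under palbociclib. The ZR-75-1 groups overlapped, and the log2 fold changes of −0.36 ± 0.17 SE with abemaciclib and −0.39 ± 0.16 SE with palbociclib did not pass (adjusted p = 0.086 and 0.069). Without ZR-75-1 DMSO replicate 1 or abemaciclib replicate 2, the first of these passed.

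CDC20, UBE2C and PTTG1 work with the anaphase-promoting complex and all fell in each comparison with DMSO. PTTG1 encodes securin, which is destroyed to release separase. In CAMA-1, PTTG1 measured 400.1, 398 and 369 CPM with DMSO, 48.6, 54.7 and 39.7 with abemaciclib, and 72.8, 70.1 and 61.0 under palbociclib. In ZR-75-1, PTTG1 measured 208, 203 and 182 CPM with DMSO, 6.15, 8.12 and 10.4 with abemaciclib, and 80.7, 92.9 and 75.4 under palbociclib. Its abemaciclib and palbociclib levels were 10.15-fold apart in ZR-75-1 and 1.45-fold apart in CAMA-1. UBE2C is the ubiquitin-conjugating enzyme of the complex and has 5 annotated pseudogenes. In CAMA-1, UBE2C measured 151, 163 and 137 CPM with DMSO, 36.9, 37.5 and 37.5 with abemaciclib, and 39.1, 40.0 and 50.3 under palbociclib. In ZR-75-1, UBE2C measured 145, 139 and 159 CPM with DMSO, 18.1, 23.7 and 20.8 with abemaciclib, and 68.3, 77.7 and 67.6 under palbociclib. CDC20 is the activator that the checkpoint inhibits. In CAMA-1, CDC20 measured 43.2, 50.4 and 41.1 CPM with DMSO, 7.75, 13.7 and 13.3 with abemaciclib, and 11.2, 11.3 and 14.6 under palbociclib. In ZR-75-1, CDC20 measured 34.7, 26.2 and 33.2 CPM with DMSO, 11.3, 13.5 and 9.25 with abemaciclib, and 18.4, 16.2 and 12.4 under palbociclib. CDC20 stood apart from PTTG1 in that its 2 drug groups overlapped in both lines.

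The 6 genes of the centromere and inner kinetochore all fell with abemaciclib in both lines and with palbociclib in CAMA-1. CENPA is the histone H3 variant that marks the centromere, and it was sparse. In CAMA-1, CENPA measured 13.6, 11.2 and 10.9 CPM with DMSO, 1.60, 3.09 and 1.27 with abemaciclib, and 3.67, 3.47 and 3.47 under palbociclib. In ZR-75-1, CENPA measured 11.2, 9.03 and 14.6 CPM with DMSO, 0.324, 0.338 and 1.16 with abemaciclib, and 6.31, 4.63 and 5.78 under palbociclib. The ZR-75-1 abemaciclib libraries held 1, 1 and 3 counts, so the mean there was at least 11.1-fold lower than with DMSO, against a floor of 3 counts per library. Its palbociclib call in that line was lost without DMSO replicate 3 or palbociclib replicate 2, with adjusted p of 0.13 and 0.067, and with DESeq2, with 0.076. Its exons overlap those of SLC35F6 on the same strand. CENPK, CENPM, CENPN, CENPU and CENPW belong to the constitutive centromere network or support it. They had log2 fold changes of −2.56 to −0.29, and CENPK with palbociclib in ZR-75-1 was the value that did not pass.

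The outer kinetochore couples chromosomes to microtubules, chiefly through the NDC80 complex of NDC80, NUF2, SPC24 and SPC25. In CAMA-1, NDC80 measured 49.5, 45.5 and 51.5 CPM with DMSO, 2.94, 5.73 and 5.08 with abemaciclib, and 10.3, 8.40 and 10.1 under palbociclib. In ZR-75-1, NDC80 measured 73.2, 61.1 and 62.3 CPM with DMSO, 1.29, 4.40 and 5.78 with abemaciclib, and 21.7, 33.7 and 27.7 under palbociclib. Abemaciclib and palbociclib did not overlap in either line. SPC25 was among the genes with the lowest fold changes in both. In CAMA-1, SPC25 measured 25.3, 22.1 and 27.1 CPM with DMSO, 0.534, 1.76 and 2.86 with abemaciclib, and 4.89, 7.53 and 2.77 under palbociclib. In ZR-75-1, SPC25 measured 14.8, 13.2 and 13.9 CPM with DMSO, 0.324, 0.338 and 0 with abemaciclib, and 4.39, 10.2 and 4.33 under palbociclib. Its ZR-75-1 abemaciclib libraries held 1, 1 and 0 counts, so the mean was at least 13.3-fold lower than with DMSO. NUF2 fell by less in that line, with a log2 fold change of −1.65.

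CENPF is a large corona protein of the outer kinetochore. In CAMA-1, CENPF measured 453, 422 and 481 CPM with DMSO, 122, 119 and 130.5 with abemaciclib, and 163, 179.5 and 151 under palbociclib. In ZR-75-1, CENPF measured 1177, 1177 and 1192 CPM with DMSO, 111, 120.5 and 110.3 with abemaciclib, and 504, 508 and 479.9 under palbociclib. No groups overlapped within a line. CENPE, a kinesin of the corona, KNL1, the checkpoint platform, and ZWINT, its partner, fell in all 4 comparisons, with log2 fold changes of −2.18 to −0.71. SPC24 did not pass with palbociclib in ZR-75-1.

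All 11 kinesin motors fell in every comparison with DMSO. KIF20A, a motor of the central spindle, was at the extreme. In CAMA-1, KIF20A measured 52.5, 52.5 and 42.3 CPM with DMSO, 4.01, 6.61 and 4.76 with abemaciclib, and 5.86, 5.21 and 11.1 under palbociclib. In ZR-75-1, KIF20A measured 29.2, 29.2 and 29.1 CPM with DMSO, 0.971, 1.02 and 0 with abemaciclib, and 8.23, 8.59 and 8.37 under palbociclib. Its ZR-75-1 abemaciclib libraries held 3, 3 and 0 counts, so the mean was at least 27.9-fold lower than with DMSO. Its exons overlap BRD8 and CDC23 on the opposite strand. KIF14, a motor of the midbody, was among the 3 lowest with palbociclib in ZR-75-1. In CAMA-1, KIF14 measured 26.9, 29.8 and 28.0 CPM with DMSO, 3.47, 6.17 and 6.98 with abemaciclib, and 4.64, 9.84 and 7.97 under palbociclib. In ZR-75-1, KIF14 measured 86.0, 83.7 and 106 CPM with DMSO, 5.82, 9.48 and 9.64 with abemaciclib, and 29.9, 29.1 and 37.0 under palbociclib.

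KIF22, a chromokinesin that pushes chromosome arms, was among the mildest of the motors. In CAMA-1, KIF22 measured 59.8, 59.5 and 55.6 CPM with DMSO, 26.7, 23.4 and 31.4 with abemaciclib, and 35.2, 38.2 and 34.0 under palbociclib. In ZR-75-1, KIF22 measured 46.9, 49.7 and 53.2 CPM with DMSO, 24.6, 14.9 and 27.8 with abemaciclib, and 36.2, 34.4 and 31.8 under palbociclib. KIF20B and KIF18A, the latter a motor that damps chromosome movement, also had log2 fold changes of −1.58 or closer to 0 throughout. KIF11, which pushes the spindle poles apart, had log2 fold changes of −1.98 ± 0.20 SE with abemaciclib in CAMA-1 and −1.97 ± 0.21 SE in ZR-75-1.

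Of the 6 spindle-associated proteins, the 5 that were tested fell in all comparisons with DMSO. TPX2 activates AURKA on the spindle. In CAMA-1, TPX2 measured 215, 207 and 232 CPM with DMSO, 62.2, 57.8 and 70.2 with abemaciclib, and 85.3, 82.8 and 70.7 under palbociclib. In ZR-75-1, TPX2 measured 196, 196 and 189 CPM with DMSO, 35.3, 32.2 and 34.3 with abemaciclib, and 99.9, 100.5 and 102 under palbociclib. PRC1 bundles the central spindle. In CAMA-1, PRC1 measured 38.2, 42.0 and 40.1 CPM with DMSO, 6.68, 9.70 and 5.71 with abemaciclib, and 16.9, 8.98 and 11.1 under palbociclib. In ZR-75-1, PRC1 measured 36.3, 39.1 and 43.4 CPM with DMSO, 4.21, 7.79 and 7.71 with abemaciclib, and 22.2, 16.2 and 20.2 under palbociclib. All drug libraries of both genes lay below DMSO. HMMR and ASPM, which act at spindle poles, had abemaciclib log2 fold changes of −4.01 and −3.53 in ZR-75-1 against −2.57 and −1.44 in CAMA-1.

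NUSAP1, a microtubule-bundling protein, did not pass the filter in either line. In CAMA-1 it had 9, 4 and 10 counts with DMSO, 0, 0 and 2 with abemaciclib, and 0, 1 and 0 under palbociclib. In ZR-75-1 it had 8, 3 and 0 counts with DMSO, 0, 0 and 0 with abemaciclib, and 0, 2 and 2 under palbociclib. In CAMA-1 its mean was at least 2.20-fold lower with abemaciclib and at least 2.56-fold lower with palbociclib. Its exons overlap OIP5-AS1 on the same strand and OIP5 on the other.

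The cytokinesis genes varied. ANLN, the anillin scaffold of the contractile ring, fell in all 4 comparisons. In CAMA-1, ANLN measured 100.02, 88.2 and 84.3 CPM with DMSO, 27.8, 31.3 and 29.5 with abemaciclib, and 35.9, 32.4 and 30.5 under palbociclib. In ZR-75-1, ANLN measured 52.3, 59.9 and 59.6 CPM with DMSO, 15.2, 14.6 and 18.5 with abemaciclib, and 31.6, 35.7 and 37.0 under palbociclib. ECT2 activates RHOA at the cleavage site. In CAMA-1, ECT2 measured 57.5, 66.2 and 72.9 CPM with DMSO, 39.0, 35.7 and 38.7 with abemaciclib, and 38.9, 42.8 and 40.6 under palbociclib. In ZR-75-1, ECT2 measured 60.3, 65.3 and 60.6 CPM with DMSO, 45.6, 45.0 and 52.4 with abemaciclib, and 53.2, 51.2 and 54.3 under palbociclib. It was among the 3 highest fold changes with both drugs in ZR-75-1, at −0.39 ± 0.12 SE with abemaciclib and −0.23 ± 0.12 SE with palbociclib, the latter not past the threshold. The abemaciclib call was lost without DMSO replicate 2 or abemaciclib replicate 2, with adjusted p of 0.0502 and 0.058, and with DESeq2, with 0.056. RACGAP1, the centralspindlin subunit that recruits ECT2, fell in all 4 comparisons.

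Condensin compacts mitotic chromosomes, and its 6 genes fell in every comparison with DMSO. SMC4 is an ATPase core subunit of both condensins. In CAMA-1, SMC4 measured 399, 441 and 451 CPM with DMSO, 111, 119.9 and 125 with abemaciclib, and 146, 149 and 137 under palbociclib. In ZR-75-1, SMC4 measured 324, 338 and 395 CPM with DMSO, 213, 221 and 216 with abemaciclib, and 301, 325 and 266 under palbociclib. It dropped to 27.5% and 33.4% of DMSO with abemaciclib and palbociclib in CAMA-1, but to 61.5% and 84.4% in ZR-75-1, where one palbociclib library overlapped DMSO. Without ZR-75-1 DMSO replicate 3 or palbociclib replicate 3 its palbociclib call in that line was lost. NCAPG is a condensin I subunit. In CAMA-1, NCAPG measured 116, 106 and 127 CPM with DMSO, 15.0, 16.8 and 16.8 with abemaciclib, and 22.5, 27.2 and 22.5 under palbociclib. In ZR-75-1, NCAPG measured 97.9, 89.4 and 89.8 CPM with DMSO, 14.6, 13.2 and 11.6 with abemaciclib, and 40.9, 44.3 and 35.8 under palbociclib. With abemaciclib its log2 fold changes were −2.86 ± 0.14 SE in CAMA-1 and −2.81 ± 0.15 SE in ZR-75-1.

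CKS1B and CKS2, small subunits that bind CDKs, had the smallest median falls of any role. In CAMA-1, CKS1B measured 569.6, 563 and 587 CPM with DMSO, 353, 318 and 296 with abemaciclib, and 377, 345 and 382 under palbociclib. In ZR-75-1, CKS1B measured 319, 349 and 308 CPM with DMSO, 242, 254 and 259.9 with abemaciclib, and 240.1, 284 and 284 under palbociclib. In CAMA-1, CKS2 measured 77.1, 74.9 and 50.8 CPM with DMSO, 47.0, 46.3 and 45.1 with abemaciclib, and 43.98, 42.8 and 45.1 under palbociclib. All drug libraries were below DMSO for both genes, though by less than 2-fold on average in each comparison. In ZR-75-1, CKS2 measured 66.4, 68.0 and 67.7 CPM with DMSO, 42.1, 34.9 and 35.1 with abemaciclib, and 47.5, 53.6 and 54.0 under palbociclib. The palbociclib call of CKS2 in ZR-75-1 was lost without palbociclib replicate 1, with an adjusted p of 0.060, and with DESeq2, with 0.056. CKS1B has 7 annotated pseudogenes, the most of any member.

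**Figure D4:**
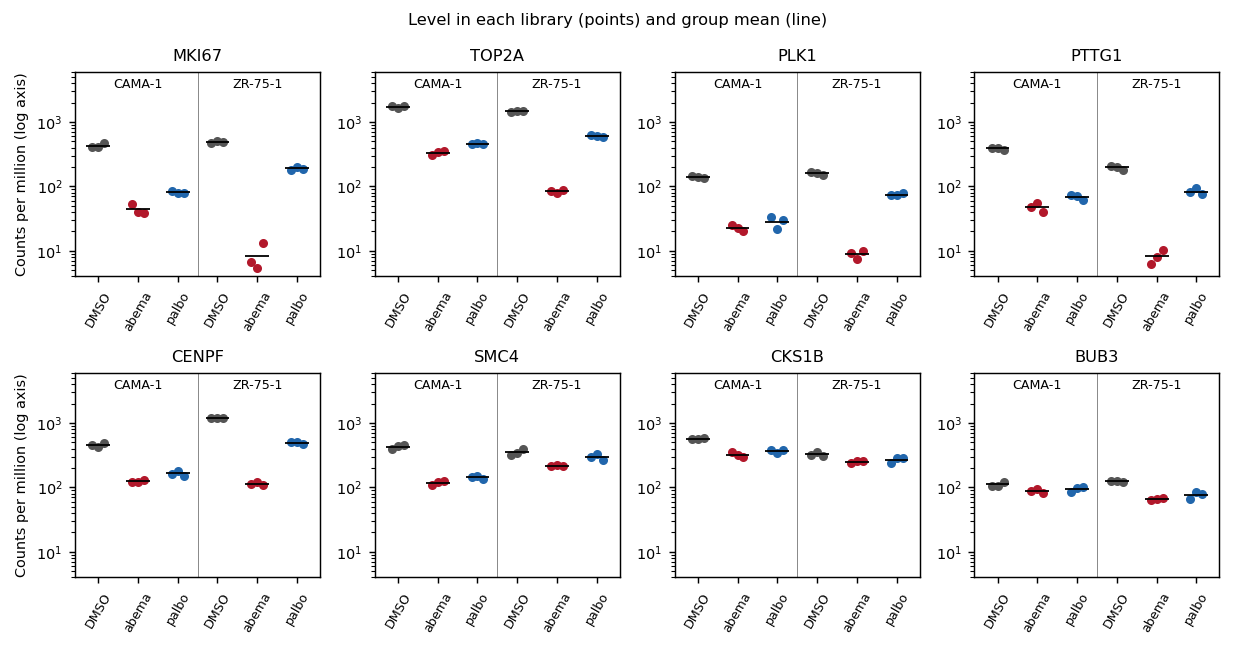
Level of 8 genes in each library (points, CPM on a log axis) with the group mean (line), for DMSO (grey), abemaciclib (red) and palbociclib (blue) in each line. MKI67, TOP2A, PLK1, PTTG1 and CENPF show the wide gap between the drugs in ZR-75-1, SMC4 falls further in CAMA-1 and BUB3 in ZR-75-1, and CKS1B keeps at least 56.2% of its DMSO mean in each group.

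The drugs were compared directly at their shared concentration and time. In CAMA-1, 14 of 59 genes were lower with abemaciclib than with palbociclib and none was higher, where 1.53% of all genes were lower and 0.796% higher. The median log2 fold change was −0.39. The 3 with the smallest p were MKI67 (−0.87 ± 0.11 SE, adjusted p = 7.4e-07), TOP2A (−0.46 ± 0.07 SE) and CKAP2L, a spindle protein (−0.76 ± 0.15 SE). The others were BIRC5, BUB1B, CENPF, CENPU, HMMR, KIF4A, KIFC1, NCAPG, NDC80, PTTG1 and SPC25. The count fell to 9 when abemaciclib replicate 1, abemaciclib replicate 2 or palbociclib replicate 2 was left out.

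Some of these calls were slight. NCAPG lost its call when any one of the 6 drug libraries was left out, with the replicate block (adjusted p = 0.059), with no filter on low counts (0.058) and with DESeq2 (0.117). BIRC5 lost it without abemaciclib replicate 2 or 3 or palbociclib replicate 1 or 3, NDC80 without abemaciclib replicate 1 or palbociclib replicate 1 or 3, and PTTG1 without abemaciclib replicate 3. PRC1, not called with all libraries, passed without palbociclib replicate 2. The calls of BUB1B, CENPU, HMMR, KIF4A, KIFC1 and SPC25 were not followed singly. The lower count without palbociclib replicate 2 includes losses among them. In CAMA-1 the abemaciclib and palbociclib libraries of SPC25 overlapped. Over all 59 genes, 54 had a negative log2 fold change. CDC20 had −0.12 ± 0.23 SE, with a 95% interval of −0.59 to 0.35, and CKS2 had 0.07 ± 0.14 SE, with an interval of −0.21 to 0.35. These intervals include both no difference and moderate ones.

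In ZR-75-1, 46 of 59 genes were lower with abemaciclib and none was higher, against 7.94% and 5.23% of all genes. The median log2 fold change was −1.25. TOP2A (−2.85 ± 0.08 SE, adjusted p = 2.1e-35), MKI67 (−4.52 ± 0.14 SE) and CENPF (−2.12 ± 0.08 SE) had the smallest p. SPC25, KIF20A and CENPA were at least 6.04-fold, 8.02-fold and 5.32-fold lower with abemaciclib than palbociclib, from the floor of 3 counts. All 5 tested spindle-associated proteins, all 6 condensin genes, 10 of 11 kinesins and 7 of 8 outer kinetochore genes were lower with abemaciclib. CKS2 lost its call without abemaciclib replicate 2, abemaciclib replicate 3 or palbociclib replicate 2, and KIF22 without abemaciclib replicate 2. Both also lost it with DESeq2, with adjusted p of 0.056 and 0.055. The 13 genes not called were BUB3, CDC20, CENPK, CENPM, CENPN, CKS1B, ECT2, INCENP, KIF18A, RACGAP1, SGO2, TTK and ZWINT. SGO2 had 0.03 ± 0.17 SE, with an interval of −0.31 to 0.37, and CKS1B had −0.09 ± 0.08 SE, with an interval of −0.25 to 0.06.

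The 14 genes called in CAMA-1 were also called in ZR-75-1, where 32 others passed. Whether the gap between the drugs differed between lines was tested in the joint fit of 18 libraries. It was wider in ZR-75-1 for 26 of 59 genes and narrower for none, where 1.77% of all genes tested had a lower and 1.03% a higher value. TOP2A (−2.38 ± 0.10 SE, adjusted p = 2.8e-28), MKI67 (−3.66 ± 0.20 SE) and CENPF (−1.71 ± 0.11 SE) had the smallest p. Among roles, 6 of 11 kinesins, 5 of 8 outer kinetochore genes and 4 of 5 spindle-associated proteins were called. None of the 6 genes of the centromere and inner kinetochore and none of the 3 of the spindle checkpoint was called. CENPA, sparse and not called, had log2 fold changes between the drugs of −0.90 in CAMA-1 and −3.18 in ZR-75-1. Lack of a call there does not show a like gap. For SPC25, KIF20A and CENPA the fitted value depends on the handling of counts near 0.

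**Figure D5:**
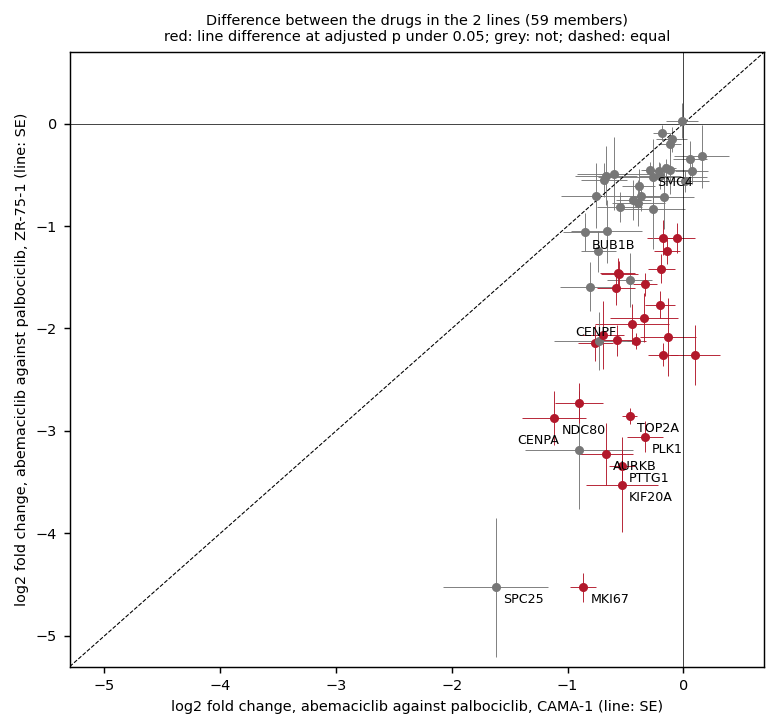
Log2 fold change of abemaciclib against palbociclib in CAMA-1 (horizontal axis) and ZR-75-1 (vertical axis) for 59 genes, with SE as lines and equality dashed. Red marks the 26 genes whose gap differed between lines, all below the dashed line, led by MKI67 at −0.87 and −4.52.

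The response to each drug was then compared between lines. Abemaciclib lowered 17 genes further in ZR-75-1 and 6 further in CAMA-1, where 10.0% of all tested genes had a lower and 8.19% a higher value in ZR-75-1. TOP2A (−1.79 ± 0.10 SE, adjusted p = 7.4e-23), CENPF (−1.53 ± 0.11 SE) and MKI67 (−2.64 ± 0.20 SE) had the smallest p, as differences in log2 fold change. The other 14 with the deeper fall in ZR-75-1 were ASPM, AURKB, BUB3, CENPE, CKAP2L, HMMR, KIF14, KIF15, KIF20A, KIF23, PLK1, PTTG1, TPX2 and UBE2C. The 6 that fell further in CAMA-1 were BUB1B, CENPN, CKS1B, MAD2L1, NUF2 and SMC4, with SMC4 at 1.14 ± 0.12 SE. That count was near the 8.19% of all genes, and was 3 without CAMA-1 abemaciclib replicate 1.

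With palbociclib the deeper falls were mostly in CAMA-1. The fall was shallower in ZR-75-1 for 34 genes and deeper for 1, BUB3, where 10.0% of all genes had a higher and 10.3% a lower value. SMC4 (1.31 ± 0.11 SE, adjusted p = 1.2e-14), PTTG1 (1.23 ± 0.14 SE) and MKI67 (1.02 ± 0.13 SE) had the smallest p. MKI67, TOP2A, PLK1, PTTG1, AURKB, UBE2C, TPX2, CKAP2L, CENPE and KIF20A were called in both tests, with the deeper fall in ZR-75-1 under abemaciclib and in CAMA-1 under palbociclib. SMC4, CKS1B, NUF2, MAD2L1, BUB1B and CENPN fell further in CAMA-1 under both drugs. BUB3 fell further in ZR-75-1 under both. The abemaciclib count that fell further in CAMA-1 was near the share of all genes. ASPM, with a difference of −0.04 under palbociclib, and CENPF, with 0.18, did not pass there.

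Across the 59 genes, the sizes of the falls were related between lines. For abemaciclib, Pearson's r was 0.783 and Spearman's rho 0.732 between the log2 fold changes in CAMA-1 and ZR-75-1, and for palbociclib 0.626 and 0.599. SPC25, KIF20A and CENPA are included, though their abemaciclib values in ZR-75-1 rest on libraries at or under the floor of 3 counts. The lines share no library. These are correlations across genes, which are not independent replicates and share the libraries of their line.

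The DMSO cultures themselves differed. In one fit of both lines, 26 of 59 genes were lower and 16 higher in ZR-75-1, where 29.8% of all genes were lower and 31.5% higher. The count of 16 is near that share and says nothing particular about these genes. The 4 highest log2 differences were in NCAPD2, a condensin I subunit (2.33 ± 0.12 SE), KIF14 (1.79 ± 0.16 SE), ASPM (1.59 ± 0.09 SE) and CENPF (1.47 ± 0.07 SE). SPC24 (−1.56 ± 0.21 SE), CENPM (−1.38 ± 0.22 SE) and KIFC1 (−1.35 ± 0.15 SE) were the lowest relative to CAMA-1. MKI67 differed by 0.26 ± 0.08 SE and TOP2A by −0.13 ± 0.06 SE, the latter not past the threshold (adjusted p = 0.06).

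Other genes of the same machinery, in lists chosen outside the 60, moved less evenly. Of 44 other mitotic regulators and spindle genes tested in CAMA-1, 34 fell with abemaciclib and 35 with palbociclib. Of 43 tested in ZR-75-1, 37 and 33 fell. None rose in any of these comparisons, and the medians were −1.77, −1.48, −2.16 and −0.86. CDCA3, a trigger of mitotic entry, had log2 fold changes of −3.51 and −4.57 with abemaciclib in CAMA-1 and ZR-75-1. Of 29 other centromere and kinetochore genes tested, 22 and 23 fell in CAMA-1 with abemaciclib and palbociclib and 16 and 9 in ZR-75-1, where 1 and 2 rose. Of all genes, 20.1% and 18.7% fell in CAMA-1 with these drugs, and 18.3% and 13.4% fell in ZR-75-1. In ZR-75-1, 17.9% and 14.5% of all genes rose. SKA1, of the complex that tracks microtubule ends, had abemaciclib log2 fold changes of −2.91 and −3.38 in CAMA-1 and ZR-75-1, and HJURP, the chaperone of CENPA, −2.27 and −3.14.

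Core subunits of larger machines had medians closer to 0, from −0.72 to 0.02 over the 3 lists and 4 comparisons. Of 12 tested core genes of the anaphase-promoting complex, 4 fell and 1 rose with abemaciclib in CAMA-1, and 1 fell and 3 rose in ZR-75-1. With palbociclib 3 fell and 2 rose in CAMA-1, and none passed in ZR-75-1 in either direction. Among all genes, 20.1% fell and 20.3% rose with abemaciclib in CAMA-1, as did 18.3% and 17.9% in ZR-75-1. With palbociclib 18.7% fell and 18.4% rose in CAMA-1, as did 13.4% and 14.5% in ZR-75-1. Counts this near those shares say nothing particular about the complex. Of 14 tested cohesin and condensin II genes, 9 fell with abemaciclib in each line, 9 with palbociclib in CAMA-1 and 7 in ZR-75-1, and none rose. Of 17 tested augmin and gamma-tubulin genes, 11 fell with each drug in CAMA-1, 10 with abemaciclib in ZR-75-1 and none with palbociclib in ZR-75-1.

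Genes of DNA replication, which belong to the earlier wave, fell in CAMA-1 with both drugs, 37 of 38 each time, with medians of −1.67 and −1.16. In ZR-75-1, 28 of 38 fell with abemaciclib, with a median of −0.95, and 12 fell and 1 rose with palbociclib, with a median of −0.35. The gap between the drugs was wider in ZR-75-1 for 2 of these 38 genes, beside 26 of 59 members and 1.77% of all genes. The 2 lists were not compared by a test. MCM10 and CLSPN, which act at replication forks, had abemaciclib log2 fold changes of −3.42 and −2.71 for CAMA-1, and −2.87 and −3.26 for ZR-75-1.

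Overlapping genes and pseudogenes can blur counts where strand and multiple alignment are not stated. Of the 60 genes, 24 overlap an exon of another gene on either strand and 17 have a pseudogene of the same name in the annotation. The 27 tested genes with neither gave like counts. Among the genes with an overlap on the opposite strand were PLK1 (with ERN2), SMC4 (with TRIM59 and IFT80) and NCAPG (with LCORL). All 27 genes with neither fell with abemaciclib in each line, and 26 and 25 fell with palbociclib in CAMA-1 and ZR-75-1. Abemaciclib gave them medians of −1.78 and −1.97, and palbociclib −1.45 and −0.93.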

How the data were processed

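Counts of 3′-end reads per gene, as deposited by the authors, were analysed for 18 libraries. The libraries were made with a QuantSeq kit. Submitters' notes list STAR 2.7.5b, featureCounts 2.0.1 and hg38, and reads were trimmed with BBDuk before alignment. The kit's strand differs between the labels and the study's methods, and strand setting, multiple alignments and molecular identifiers are not given in the sources used here. Replicates are stated to be independent, and p-values measure the spread between these samples.

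Library totals ran from 2308442 to 4146549 counts. Each line's 9 libraries were fitted by group with edgeR 4.0.16 (R 4.3.3; TMM, filterByExpr, quasi-likelihood F test, Benjamini-Hochberg over all genes tested). The tested genes numbered 11053 for CAMA-1 and, for ZR-75-1, 11017. Differences between lines came from 1 fit of 18 libraries (11987 genes). CPM are counts relative to TMM-scaled totals, and between-line levels use the joint fit. The SE is the log2 fold change over the root of F, and can be too small where counts are few. Levels and sums carry counting error besides. The functions were tested on simulated counts.

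The genes and lists were chosen with earlier results of these data known. Values in every library were given for a fixed set of genes and for the 3 lowest and 3 highest fold changes in each comparison with DMSO, where the mean over the line reached 10 counts. Between drugs or lines, the 3 genes with the smallest p were named, and genes whose call rested on 1 library were named after their values were seen. Single calls were followed through the alternatives only for genes of the fixed set or named by rank. Gene overlaps were read from GENCODE release 44 (GRCh38) and promoters from RefSeq (GRCh38.p14).

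Alternatives were RLE and upper-quartile scaling, no filter, DESeq2 1.42.0, removal of mitochondrial genes, a replicate block, 1 fit of 18 libraries and each replicate left out. For promoters they were TTTGAA alone and the shorter window.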

Additional observations from a re-analysis of the deposited data

Results flagged for a closer look

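The following results are listed because the test of the difference between the 2 lines had an adjusted p below 0.05 by the quasi-likelihood test of edgeR. Differences are in log2 fold change, ZR-75-1 minus CAMA-1.

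With abemaciclib, 17 of 59 mitotic genes fell further in ZR-75-1 and 6 further in CAMA-1, where 10.0% of all tested genes had a lower and 8.19% a higher value. The 6 are near that share, and were 3 without CAMA-1 abemaciclib replicate 1. The differences were −1.79 for TOP2A, −1.53 for CENPF and −2.64 for MKI67.

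With palbociclib, 1 of 59 genes (BUB3) fell further in ZR-75-1 and 34 fell further in CAMA-1, where 10.3% of all tested genes had a lower and 10.0% a higher value. The differences were 1.31 for SMC4, 1.23 for PTTG1 and 1.02 for MKI67.

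The gap between abemaciclib and palbociclib was wider in ZR-75-1 for 26 of 59 genes and narrower for none, where 1.77% of all tested genes had a lower and 1.03% a higher value. The differences were −2.38 for TOP2A, −3.66 for MKI67 and −1.71 for CENPF.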

How the results depend on the processing

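The counts of lower genes in the 4 comparisons with DMSO kept within 1.5 times of their values under every alternative that was run. That bound is loose for counts so near their maximum. Abemaciclib against palbociclib in CAMA-1 gave 14 lower genes, 9 to 11 with a replicate left out, 10 with DESeq2 and 17 with upper-quartile scaling. The 6 genes that fell further in CAMA-1 with abemaciclib became 3 to 7 with a replicate left out. With a replicate left out the median log2 fold change ran from −1.62 to −1.54 with palbociclib in CAMA-1, from −0.95 to −0.89 with palbociclib in ZR-75-1, and from −1.25 to −1.10 for abemaciclib against palbociclib in ZR-75-1. CDC20 between the drugs in CAMA-1, at −0.12, ran from −0.27 to 0.14 with a replicate left out. It turned to 0.14 without abemaciclib replicate 1 and to 0.00092 without palbociclib replicate 3. For single genes, 156 values were recomputed under their alternatives, 2073 times in all. Direction and side of the threshold were kept 2032 times, a call was lost 34 times by 11 values and gained 5 times by 4. Member windows with CHR letters were 66.1% with TTTGAA alone, by construction fewer than 79.7%. The cause of the other changes was not tested. Same-numbered replicates did not deviate together (r from −0.077 to 0.011 over 18 pairs, with 4 of 36 highest for the shared number). With the replicate block, the lower counts between the drugs were 12 in CAMA-1 and 46 in ZR-75-1, and no count moved by over 1.5 times. At 2308442 counts or more per library, levels under 3 counts could not be resolved for CENPA, SPC25 and KIF20A with abemaciclib in ZR-75-1 or for NUSAP1.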
